A study of Rattus norvegicus with 4 samples.

Results

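A group of 51 annotated transcripts from 47 genes rose in rat vascular smooth muscle cells after knockdown of the splicing factor RbFox2 without their gene passing the same measure of a rise. They were taken from 54852 annotated transcripts counted by Iso-Seq, of which 6701 had 10 or more counts in all 4 libraries. A transcript was kept when its lower level with RbFox2 siRNA was more than 1.5 times its higher level with control siRNA, with counts scaled to the sum of all transcript counts of the library (CPM). Below, a transcript that rose is one that passed this ratio. This held for 89 transcripts, 1.33% of the 6701, and 88 of the 89 had a gene symbol and number as a name. Of the 88, 33 came from a gene that also passed the measure and 4 were left out because their genes were on a list of 12 symbols not described here, which left the 51. Of these, 25 transcripts from 21 genes had a gene identifier, so their gene's own counts could be read and failed the measure. The other 26, from 26 genes, had no identifier in the tables used here, so whether their gene rose could not be checked. Because the measured counts of both conditions chose the transcripts, their rise is given as a description, with no test.

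The cells were A7R5, a smooth muscle line derived from rat embryonic aorta and here a model of 1 line in culture. They were transfected for 72 hours with a pool of siRNAs against RbFox2 or with a negative control pool of 4 siRNAs, with 2 libraries per condition. The deposited treatment description also names RhoBTB1 beside RbFox2, while the sample titles and the study's account of its Iso-Seq experiment name RbFox2 only. In such bulk libraries, fewer cells with a transcript and less of it per cell cannot be told apart. No source says that the 2 libraries of a condition came from separate cultures, so their spread may be technical.

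RbFox2 is an RNA-binding protein that recognizes short sequence elements beside alternative exons and promotes their inclusion or their skipping depending on which side of the exon it binds. A change in its amount can therefore move reads from one transcript of a gene to another without a matching change in the gene's total. In Ensembl names such as Cd63-202, the number after the symbol is a running label of the gene's annotated transcripts and carries no functional meaning. Iso-Seq reads whole cDNA molecules, so a read can often be assigned to a single transcript. Reads that fit several transcripts of a gene, or none of them fully, still count for the gene.

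*Rbfox2* itself had 243 and 250 gene counts with control siRNA and 70 and 78 with RbFox2 siRNA. Gene counts summed to between 4072385 and 4617706 per library and transcript counts to between 2419794 and 2738439, which gave 58.5 to 59.4 transcript counts for every 100 gene counts. The smooth muscle markers *Cnn1*, *Cald1* and *Tpm1* were each detected in all libraries and were lower in both RbFox2 siRNA libraries. In CPM of gene counts, *Cnn1* had 448 and 517 with control siRNA and 269 and 286 with RbFox2 siRNA, *Cald1* had 1591 and 1163 against 779 and 848, and *Tpm1* had 223 and 187 against 94.8 and 122. The part of this difference in the values of the 51 transcripts was not tested. The other 8 smooth muscle markers and the markers of endothelial cells, leukocytes and epithelial cells had no identifier here and were not analysed. A transcript at the minimum of 10 counts had a level of 3.65 to 4.13 CPM, and 30 of the 51 transcripts had under 20 counts in at least 1 library.

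The ratio of the lower RbFox2 siRNA level to the higher control siRNA level ran from 1.51 to 8.09 across the 51 transcripts, with a median of 1.74. It was above 3 in 7 transcripts and above 2 in 16. The 7 were Tbc1d23-202, Cd63-202, Csnk1g3-205, Arhgap17-201, Mprip-202, Abcb1b-202 and Nf2-202. By the rule, the conditions do not overlap in any of the 51. In edgeR's quasi-likelihood fit over all transcripts, 24 of the 51 were called higher, against 1.66% of the 7703 transcripts tested. Of the 844 named transcripts with 10 or more counts in all libraries, from which the 51 come, 80 were called higher. The choice of the transcripts fixes both comparisons in advance. The 24 included the 16 with a ratio above 2 and Tbc1d1-201, Cd63-203, Ift122-203, Sec31a-204, Acot2-201, Tgif1-201 and Tacc2-209. Without control siRNA replicate 1, and likewise without control siRNA replicate 2, 13 of the 51 were called, and the DESeq2 Wald test called 14 of them. The median fitted log2 fold change was 1.12, beside 0.00 over all tested transcripts and 0.52 over the 844 named transcripts with 10 or more counts in all libraries. The names used here come from the rising end of the study's list of isoforms, so transcripts that fell had almost no names and do not appear beside those that rose.

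**Figure D1:**
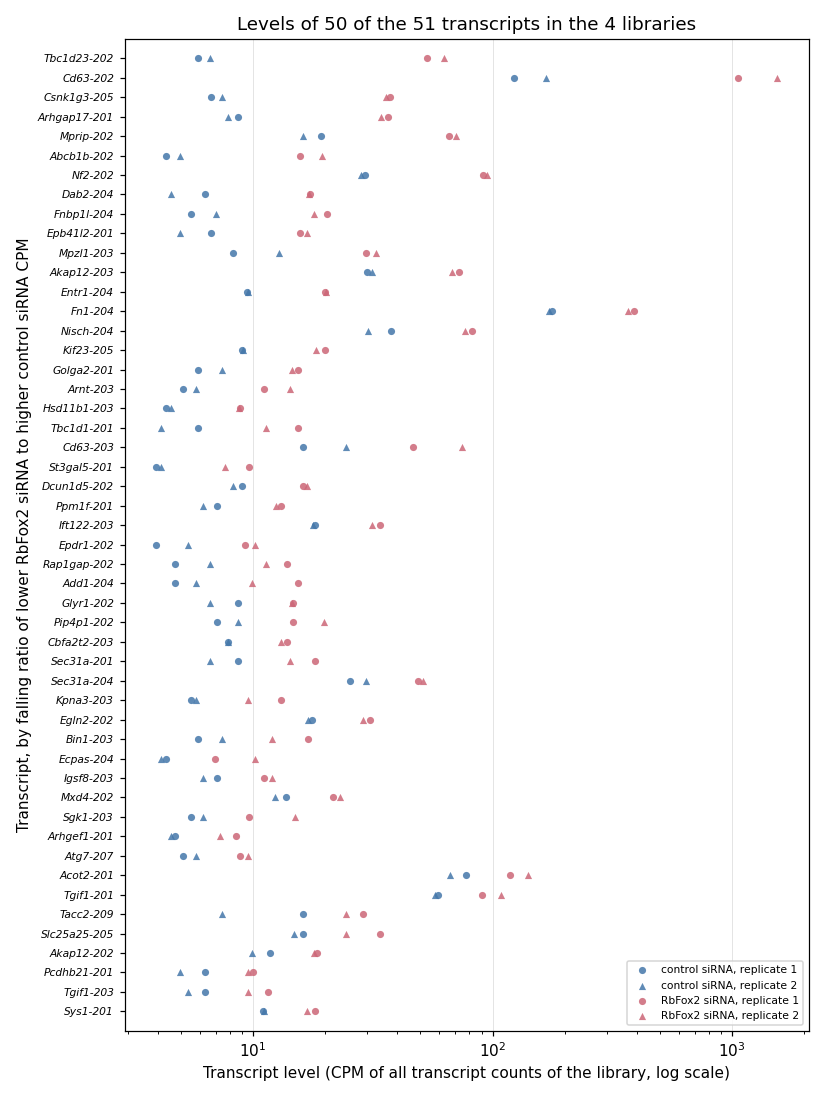
Level of 50 of the 51 transcripts in the 4 libraries, in CPM of all transcript counts on a log axis, with circles for replicate 1, triangles for replicate 2, blue for control siRNA and red for RbFox2 siRNA. Most control levels lie below 20 CPM, and Cd63-202 reaches 1057 and 1548 CPM with RbFox2 siRNA.

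The genes with an identifier did not all stay level. Of the 21, 17 genes, which hold 19 of the transcripts, were higher in both RbFox2 siRNA libraries than in both control siRNA libraries but by a ratio of 1.5 or less. *Cd63* and *Sys1*, with 3 transcripts, overlapped between conditions. *Sec31a* and *Fnbp1l*, also with 3 transcripts, were lower in both RbFox2 siRNA libraries. Among all 8254 genes with 10 or more counts in all libraries, 17.7% were higher in both RbFox2 siRNA libraries, 29.5% were lower in both, and 0.787% passed the ratio of 1.5. The 21 genes were reached through a rising transcript and through identifiers held for only a part of all genes. The shares over all genes are therefore not a like background for them. In edgeR's fit over all genes, *Abcb1b*, *Acot2* and *Tgif1* were called higher, *Sec31a* and *Fnbp1l* were called lower, and 16 of the 21 genes were not called. The background was 3.12% of 9069 genes called higher and 4.37% called lower. By this split, the words rising without the gene describe *Cd63*, *Sys1*, *Sec31a* and *Fnbp1l*. For the other 17 genes the transcript rose past a threshold that the gene, although higher, did not reach. The split rests on whether 2 libraries per condition overlap. In mean CPM the gene ratio was 1.23 for *Cd63* and 1.15 for *Sys1*, and among the 17 it ran from 1.18 for *Atg7* to 2.02 for *Abcb1b*.

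**Figure D2:**
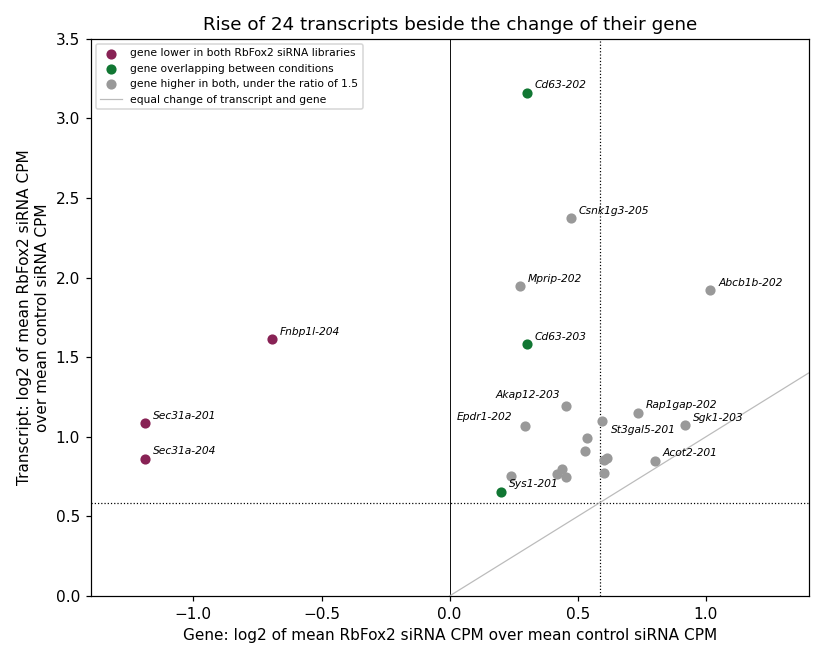
For 24 of the 25 transcripts with a gene identifier, the log2 ratio of mean RbFox2 siRNA to mean control siRNA CPM is plotted for the transcript (vertical) against its gene (horizontal), with dotted lines at a ratio of 1.5 and a grey line where both are equal. The 2 Sec31a transcripts and Fnbp1l-204 sit left of 0, Cd63-202 stands highest, and Acot2-201 lies near the line of equal change.

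Cd63 is a tetraspanin, a membrane protein of late endosomes, lysosomes and secreted vesicles. Cd63-202 (ENSRNOT00000090381) had 314 and 406 counts with control siRNA and 2748 and 4238 with RbFox2 siRNA. In CPM these were 146 ± 31.5 and 1302 ± 347 (SD, n = 2 each), a fitted log2 fold change of 3.20 with a standard error of 0.22. Both RbFox2 siRNA libraries were far above both control libraries, although they differed from each other by more than the control libraries did. Without RbFox2 siRNA replicate 2 the log2 fold change was 2.92, and without control siRNA replicate 2 it was 3.46. The whole gene (ENSRNOG00000007650) had 2667 and 3219 counts with control siRNA and 3091 and 4739 with RbFox2 siRNA, or 613 and 790 against 701 and 1026 CPM of gene counts, and these ranges overlap.

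The share of *Cd63* reads held by Cd63-202 therefore changed almost completely. It was 11.8% (95% Wilson interval 10.6% to 13.1%) and 12.6% (11.5% to 13.8%) of the gene's counts in the control libraries. With RbFox2 siRNA it was 88.9% (87.7% to 90.0%) and 89.4% (88.5% to 90.3%). These intervals cover counting error only, since the reads were amplified and carry no molecular identifiers. Replicates differed by less than 1 percentage point, and the conditions by 77.0 points.

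A second transcript of the gene, Cd63-203, also rose, from 41 and 59 counts to 121 and 204. Its share went from 1.54% and 1.83% to 3.91% and 4.30%, so it stayed a minor transcript in all libraries. All other reads of *Cd63*, after both transcripts are taken away, were 2312 and 2754 with control siRNA and 222 and 297 with RbFox2 siRNA. As a level this was 604 ± 103 CPM and 57.3 ± 9.87 CPM (SD, n = 2 each), a ratio of 0.095. The reads of the gene thus divided in opposite directions while their sum overlapped between conditions.

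Sec31a is a subunit of the outer COPII coat, which shapes vesicles leaving the endoplasmic reticulum. The gene fell from 849 and 746 counts to 407 and 340, a fitted log2 fold change of -1.13 with a standard error of 0.15. Against that fall, Sec31a-204 rose from 65 and 72 counts to 127 and 141, and Sec31a-201 rose from 22 and 16 to 47 and 39. The share of Sec31a-204 went from 7.66% and 9.65% to 31.2% and 41.5%, and that of Sec31a-201 from 2.59% and 2.14% to 11.5% in both RbFox2 siRNA libraries. Both transcripts gained share in every RbFox2 siRNA library, and the remainder of the gene had 762 and 658 counts against 233 and 160, a ratio of 0.26 in CPM.

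Fnbp1l, also known as Toca-1, is an F-BAR protein that links curved membrane to actin assembly during endocytosis. Its gene counts were 387 and 309 with control siRNA and 214 and 247 with RbFox2 siRNA, a fitted log2 fold change of -0.64 with a standard error of 0.16. Fnbp1l-204 had 14 and 17 counts with control siRNA and 53 and 49 with RbFox2 siRNA, or 6.26 ± 1.08 and 19.1 ± 1.76 CPM (SD, n = 2 each). Its share rose from 3.62% and 5.50% to 24.8% and 19.8%. The remaining reads of *Fnbp1l* were lower in both RbFox2 siRNA libraries, with 373 and 292 counts against 161 and 198.

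**Figure D3:**
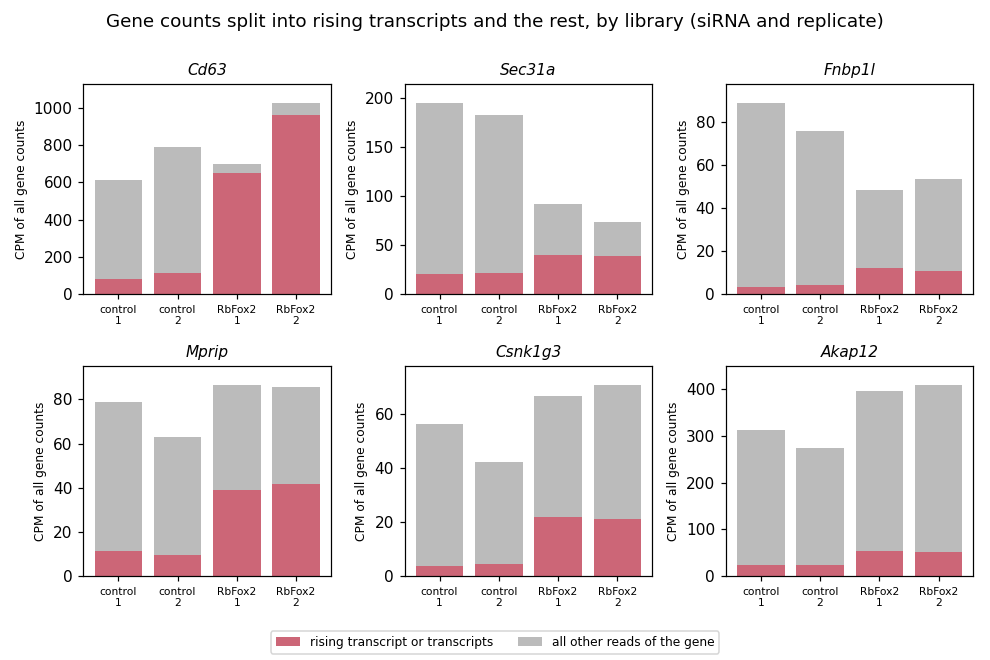
Gene counts of Cd63, Sec31a, Fnbp1l, Mprip, Csnk1g3 and Akap12 in each library, in CPM of all gene counts, with the rising transcript or transcripts in red and all other reads of the gene in grey. The grey part shrinks in both RbFox2 siRNA libraries for Cd63, Sec31a, Fnbp1l and Mprip, overlaps between conditions for Csnk1g3 and grows for Akap12.

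Mprip binds myosin phosphatase, RhoA and actin filaments, and so places the phosphatase that relaxes smooth muscle on stress fibers. Mprip-202 had 49 and 39 counts with control siRNA and 171 and 193 with RbFox2 siRNA, or 17.7 ± 2.21 and 68.1 ± 3.32 CPM (SD, n = 2 each). Its fitted log2 fold change was 1.99 with a standard error of 0.23. The gene had 344 and 257 counts against 381 and 395, a mean ratio of 1.21 in CPM. The share of Mprip-202 rose from 14.2% and 15.2% to 44.9% and 48.9%, close to even with the rest of the gene. That rest was lower in both libraries, with 295 and 218 counts against 210 and 202, so *Mprip* was the fourth gene, after *Cd63*, *Sec31a* and *Fnbp1l*, in which the remaining reads were lower in both RbFox2 siRNA libraries.

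Csnk1g3 is a membrane-associated casein kinase of the gamma family. Csnk1g3-205 rose from 17 and 18 counts to 97 and 98, with close agreement between the libraries of each condition. The gene had 246 and 173 counts with control siRNA and 294 and 327 with RbFox2 siRNA, and without Csnk1g3-205 the remaining 229 and 155 counts against 197 and 229 overlapped between conditions. The share of Csnk1g3-205 went from 6.91% and 10.4% to 33.0% and 30.0%.

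Akap12, or gravin, is a scaffold that holds protein kinase A and protein kinase C near the plasma membrane. Akap12-203 had 76 counts in both control libraries and 189 and 185 with RbFox2 siRNA, and Akap12-202 had 30 and 24 against 48 and 49. The gene was also higher, with 1360 and 1117 counts against 1744 and 1887, a mean ratio of 1.37 in CPM. Akap12-203 went from 5.59% and 6.80% of the gene to 10.8% and 9.80%, and Akap12-202 from 2.21% and 2.15% to 2.75% and 2.60%. Both were therefore small parts of a gene whose remaining reads were also higher in both libraries.

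In several genes the whole gene was also higher by a mean ratio above 1.5. *Abcb1b* encodes a P-glycoprotein that pumps drugs and lipids out of the cell. Abcb1b-202 rose from 11 and 12 counts to 41 and 53, and the gene from 97 and 73 to 145 and 224, a mean ratio of 2.02 that failed the rule only because the lower RbFox2 siRNA library was 1.48 times the higher control library. The serum- and glucocorticoid-induced kinase gene *Sgk1* was alike, with 39 and 40 counts against 63 and 98 and a mean ratio of 1.89, beside 14 and 15 against 25 and 41 for Sgk1-203. *Abcb1b* has a close paralog, *Abcb1a*, and reads of such copies can be hard to assign.

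*Acot2* encodes a mitochondrial acyl-CoA thioesterase and also has close paralogs. Acot2-201 had 198 and 161 counts with control siRNA and 309 and 386 with RbFox2 siRNA, and the gene had 333 and 280 against 503 and 641. Acot2-201 held 59.5% and 57.5% of the gene's counts with control siRNA and 61.4% and 60.2% with RbFox2 siRNA, a gain of 2.35 points. The gene ratio was 1.49 and the transcript ratio 1.53, so the threshold of 1.5 fell between values that were nearly the same.

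*Tgif1*, which encodes a homeodomain repressor of TGF-β and retinoid signaling, gave a similar picture with 3 named transcripts. The gene had 847 and 826 counts against 1337 and 1382, a ratio of 1.48. Tgif1-201 rose from 151 and 139 counts to 235 and 298, Tgif1-203 from 16 and 13 to 30 and 26, and Tgif1-204, which missed the threshold at a ratio of 1.42, from 599 and 589 to 963 and 948. The shares of Tgif1-201, at 17.8% and 16.8% against 17.6% and 21.6%, overlapped between conditions, as did those of Tgif1-203.

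*St3gal5*, the synthase of the ganglioside GM3, had 186 counts in both control libraries and 340 and 260 with RbFox2 siRNA. St3gal5-201 rose from 10 counts in both control libraries to 25 and 21. Its sister transcript St3gal5-202 held far more reads, 85 in both control libraries and 199 and 125 with RbFox2 siRNA, and missed the threshold at a ratio of 1.30 because the RbFox2 siRNA libraries differed. St3gal5-201 was 5.38% of the gene in both control libraries and 7.35% and 8.08% with RbFox2 siRNA.

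*Ift122*, a subunit of the transport complex of primary cilia, had 84 and 78 counts against 139 and 126, and Ift122-203, the larger part of it, rose from 46 and 43 to 88 and 86. *Slc25a25*, a calcium-dependent carrier of ATP and magnesium in mitochondria, had 88 and 73 counts against 140 and 107, beside 41 and 36 against 88 and 67 for Slc25a25-205. The share of Slc25a25-205 rose from 46.6% and 49.3% to 62.9% and 62.6%, and the reads of the gene without it overlapped between conditions.

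*Hsd11b1*, the enzyme that regenerates active glucocorticoid, had 36 and 41 gene counts against 58 and 62, and Hsd11b1-203 rose from 11 in both control libraries to 23 and 24. *Atg7*, an activating enzyme of autophagy, had 57 and 56 gene counts against 66 and 77, and Atg7-207 rose from 13 and 14 to 23 and 26. In these genes the transcript's share lay between 22.8% and 30.6% with control siRNA and between 33.8% and 39.7% with RbFox2 siRNA.

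*Rap1gap* switches off the small GTPase Rap1. Rap1gap-202 rose from 12 and 16 counts to 36 and 31 and made up most of a gene with only 14 and 26 counts in the control libraries and 37 and 35 with RbFox2 siRNA. *Pcdhb21* is a member of the clustered protocadherin genes, which resemble each other closely, and Pcdhb21-201 had 16 and 12 counts against 26 in both RbFox2 siRNA libraries. Its gene had 29 counts in both control libraries and 45 and 39 with RbFox2 siRNA, so the shares of both genes rest on few reads.

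*Mxd4*, a repressor in the Max network, and *Epdr1*, a secreted ependymin-related protein, were the opposite case, with a minor transcript in a well-covered gene. Mxd4-202 rose from 35 and 30 counts to 56 and 63 in a gene with 489 and 433 against 635 and 684. Epdr1-202 rose from 10 and 13 to 24 and 28 in a gene with 1194 and 1130 against 1564 and 1489, and it was under 2% of the gene in all libraries. Sys1-201, from a gene for a Golgi membrane protein, rose from 28 and 27 counts to 47 and 46, while *Sys1* had 167 and 193 against 200 and 246, which overlap in CPM.

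Across the 25 transcripts, the median share of the gene's counts was 13.9% with control siRNA and 31.5% with RbFox2 siRNA. The share was higher in both RbFox2 siRNA libraries for 23 of them, against 39.4% of 640 named transcripts with 10 or more counts and a gene identifier, and the rule favored this outcome. The exceptions were both *Tgif1* transcripts. The gain exceeded 10 points for 13 transcripts. Of the 21 genes, the reads left after the rising transcripts were taken away were lower in both RbFox2 siRNA libraries in 4, higher in both in 9 and overlapping in 8.

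**Figure D4:**
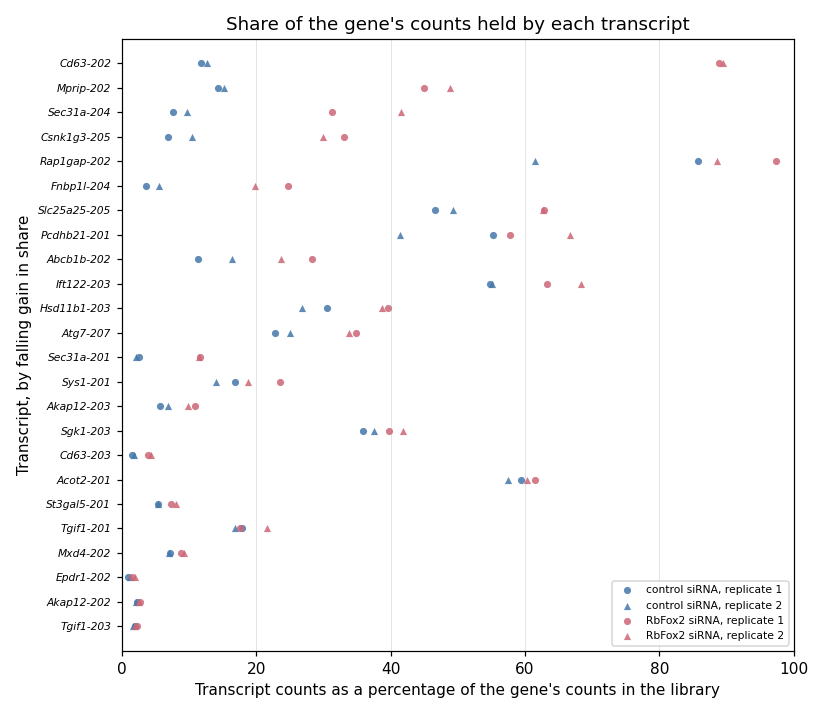
Percentage of the gene's counts held by 24 of the 25 transcripts in each library, ordered by the difference in mean share, with circles for replicate 1, triangles for replicate 2, blue for control siRNA and red for RbFox2 siRNA. Cd63-202 moves from near 12% to near 89%, while the transcripts at the bottom, among them both of Tgif1, barely move.

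The 26 transcripts whose gene could not be read had ratios from 1.52 to 8.09, beside 1.51 to 6.30 for the 25 with an identifier. Of the 26, 12 were called higher by edgeR, against 1.66% of all 7703 transcripts tested and 80 of the 844 named ones. The choice of the transcripts fixes that comparison in advance. The steepest rise was in a gene that was grouped here with the regulators of small GTPases. Tbc1d23, a bridge that captures endosome-derived vesicles at the Golgi, had 15 and 16 counts of Tbc1d23-202 (ENSRNOT00000102661) with control siRNA and 139 and 171 with RbFox2 siRNA. These were 6.25 ± 0.510 and 58.0 ± 6.34 CPM (SD, n = 2 each), a fitted log2 fold change of 3.25 with a standard error of 0.27. Both RbFox2 siRNA libraries were more than 8 times the higher control library.

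Arhgap17, or RICH1, switches off Cdc42 and Rac1 at cell junctions. Arhgap17-201 rose from 22 and 19 counts to 95 and 94, a fitted log2 fold change of 2.14 with a standard error of 0.27. Tbc1d1, a brake on Rab proteins in the traffic of glucose transporters, rose from 15 and 10 counts of Tbc1d1-201 to 40 and 31. Arhgef1, an activator of RhoA downstream of G protein-coupled receptors, was near the minimum, with 12 and 11 counts of Arhgef1-201 against 22 and 20.

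Proteins that join the plasma membrane to the cortical cytoskeleton gave 3 transcripts. Nf2, or merlin, is a tumor suppressor that ties membrane proteins to actin and feeds into the Hippo pathway. Nf2-202 had 75 and 68 counts with control siRNA and 237 and 259 with RbFox2 siRNA, or 28.8 ± 0.955 and 92.9 ± 2.41 CPM (SD, n = 2 each), with replicates of both conditions close together. Epb41l2-201, from a gene of the band 4.1 family, rose from 17 and 12 counts to 41 and 46. Add1-204, from the gene of α-adducin, which caps actin filaments in the spectrin network, rose from 12 and 14 to 40 and 27, with a wide spread between the RbFox2 siRNA libraries.

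Membrane traffic was represented by *Dab2*, *Entr1*, *Golga2* and *Bin1*. Dab2 is an adaptor that loads cargo into clathrin-coated pits, and Dab2-204 rose from 16 and 11 counts to 45 and 47. Entr1 works in endosome recycling and cytokinesis, and Entr1-204 rose from 24 and 23 to 52 and 55, while a second named transcript, Entr1-202, had 8 and 7 against 13 and 16 and was under the minimum. Golga2, or GM130, is a matrix protein of the Golgi, with 15 and 18 counts of Golga2-201 against 40 in both RbFox2 siRNA libraries. Bin1, which bends membranes into tubules, had 15 and 18 counts of Bin1-203 against 44 and 33. Of these 4, Dab2-204 and Entr1-204 were called higher.

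Fn1, fibronectin, is a main adhesive protein of the extracellular matrix and a classic case of alternative splicing. Fn1-204 had the second most counts of the 51 transcripts, with 452 and 418 against 1015 and 1007, or 175 ± 3.36 and 379 ± 16.1 CPM (SD, n = 2 each). The difference was many times the spread between replicates, but without counts of the whole gene it cannot be said whether other fibronectin transcripts moved with it. Mpzl1, an adhesion receptor of the immunoglobulin family, rose from 21 and 31 counts of Mpzl1-203 to 77 and 89.

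Of transcripts for microtubule-associated proteins, Kif23-205, from the gene of a kinesin of the cytokinetic midzone, rose from 23 and 22 counts to 52 and 50. Tacc2-209, from a gene for a centrosomal coiled-coil protein, had 41 and 18 counts against 75 and 67. Its control libraries differed by 2.16 times in CPM, the widest replicate difference of the 51 transcripts with control siRNA. Without control siRNA replicate 1 its fitted log2 fold change was 1.82 and without replicate 2 it was 0.78.

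In the lysosomal and tetraspanin group, Pip4p1-202, from a gene for a phosphoinositide phosphatase, rose from 18 and 21 counts to 38 and 54, and Igsf8-203, from a gene for a partner of tetraspanins, from 18 and 15 to 29 and 33. Among transcriptional and chromatin regulators, Arnt-203, from the gene of the shared partner of HIF and the dioxin receptor, rose from 13 and 14 to 29 and 39. Glyr1-202, from the gene of a nucleosome-binding factor, rose from 22 and 16 to 38 and 40, and Cbfa2t2-203, from the gene of a corepressor, from 20 and 19 to 36 in both RbFox2 siRNA libraries. None of these 5 was called by edgeR.

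The last 6 transcripts fell in no functional list. Nisch-204, from the gene of the imidazoline-binding protein nischarin, which restrains cell migration, rose from 96 and 73 counts to 214 and 211 and was the only one of the 6 called higher. Egln2-202, from the gene of a HIF prolyl hydroxylase, rose from 45 and 41 to 80 and 79. Dcun1d5-202, from the gene of a factor that promotes the neddylation of cullins, rose from 23 and 20 to 42 and 46. Ppm1f-201, from a phosphatase gene, had 18 and 15 against 34 in both RbFox2 siRNA libraries. Kpna3-203, from a nuclear import receptor gene, had 14 in both control libraries against 34 and 26, and Ecpas-204, from the gene of a proteasome adaptor, had 11 and 10 against 18 and 28.

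Grouped by 10 lists of gene function, 36 of the 51 transcripts fell in a list. The lists were written with the names of the rising transcripts and earlier results known. The counts per list can be shaped by that and are a description only. Of all 844 named transcripts with 10 or more counts in all libraries, the 51 were 6.04%. They were 3 of 5 for the membrane skeleton, 4 of 9 for microtubules, motors and the nuclear envelope (Kif23-205, Tacc2-209 and the 2 transcripts of the kinase scaffold Akap12), 8 of 23 for endocytosis and vesicle traffic and 5 of 16 for regulators of small GTPases. For extracellular matrix and adhesion they were 4 of 20, for transcription and chromatin 4 of 24 and for lysosome, autophagy and tetraspanins 5 of 31. They were 2 of 27 for mitochondria and metabolism, 1 of 18 for actin filament regulators (Mprip-202) and 0 of 15 for RNA processing. Over all named transcripts in each list, whether or not among the 51, the median log2 fold change was between 0.55 and 0.69 except for the membrane skeleton, where it was 1.30 over 5 transcripts, and no list had a transcript called lower among these names from the rising end.

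The 51 were set beside the 33 transcripts that rose together with their gene, with no test. A transcript that holds most of its gene's reads can hardly rise without the gene, so the rule itself favors minor transcripts among the 51, and for 26 of them the gene was not read. The number 201 was carried by 13 of the 51 (25.5%), by 21 of the 33 (63.6%) and by 553 of the 844 named transcripts (65.5%). The median control count of the 51 was 19.0, against 67.5 for the 33 and 50.8 for the 844. In the RefSeq annotation of the GRCr8 assembly, the genes of the 51 had a median of 5 transcripts, against 2 and 3. The median log2 fold change was 1.12 for the 51 and 1.01 for the 33, and edgeR called 24 of the 51 and 26 of the 33. The lower counts of the 51 stand beside the lower number of calls, and their part in it was not tested. In RefSeq, 19 of the 47 genes (40.4%) overlapped another gene, as did 5 of 28 of the genes that rose with their transcript and 40.8% of all named genes with a match. *Tbc1d23*, *Cd63*, *Mprip* and *Abcb1b* were among the 19, and reads of overlapping genes can be hard to assign.

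The edge of the rule was crowded. Sys1-201, Pcdhb21-201 and Tgif1-203 were the last inside it, each with a ratio of 1.51. Just outside were Vav2-204, with 19 and 12 counts against 29 and 31, Lrrn2-204, with 122 and 103 against 227 and 196, and Trp53rka-201, with 42 and 31 against 64 and 70. All 3 were higher in both RbFox2 siRNA libraries than in both control libraries, as were the 3 just inside.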

How the data were processed

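Iso-Seq libraries of A7R5 cells treated with control siRNA or RbFox2 siRNA, 2 per condition, were grouped by their titles. The authors removed primers with lima 2.13.0, aligned full-length reads to mRatBN7.2 with pbmm2 1.17.0, counted them with IsoQuant 3.5.0 on Ensembl 112 and deposited raw counts per gene and per transcript, without normalization. Tables were joined by identifier, and names came from the study's lists, of which a part was held. The members and the gene lists were chosen with earlier results of these data known, and the lists also with the names of the rising transcripts in view.

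CPM used each table's column sum. A transcript's share is its count over its gene's count, with Wilson 95% intervals. The fits used edgeR 4.0.16 (filterByExpr, TMM, quasi-likelihood F test, Benjamini-Hochberg, adjusted p under 0.05 and fold change over 1.5) in R 4.3.3. A check on simulated counts used a fixed spread between replicates and changes larger than most rises given here. It does not speak for calls of smaller changes. Alternatives were DESeq2 1.42.0 size factors and Wald test, other count minimums and folds, the replicate number as a block and each library left out. Replicates differed by more than sampling noise, with a chi-square per degree of freedom of 3.45 for control siRNA and 7.10 for RbFox2 siRNA over transcripts.

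Full values were given for the 10 members with the largest ratio, the 5 with most counts, the 3 with the largest ratio in each list, members of genes with several members or with a lower gene, and the 3 on each side of the threshold. The others were named for completeness, except 1 that is counted but not reported here by name. No isoform sequence was used here.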

Additional observations from a re-analysis of the deposited data

How the results depend on the processing

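The number of transcripts that met the rule, 51, was 84 with a count minimum of 5 and 21 with a minimum of 20. With a looser ratio for transcript and gene it was 161, and with a ratio of 2 it was 18. The looser ratio kept 41 of the 51, and the rest dropped out because their gene then passed. The number was 35, all among the 51, when the gene's mean ratio had to stay under a limit stricter than 1.5. The 26 transcripts without a gene identifier could not fail that limit, so the loss fell on the 25 with one. It was 25 when only genes with an identifier were allowed, and between 94 and 136 with 1 library left out, where the rule is easier to pass. Of the 51, 45 to 48 remained in the sets with 1 library left out. It was 56 with TMM library sizes and 58 with DESeq2 size factors, and Abcb1b-202 and Acot2-201 dropped out of both. Of the 330 transcripts called in either direction, the count was 522 without a low-count filter, 209 with the DESeq2 Wald test and between 145, without control siRNA replicate 1, and 764, without RbFox2 siRNA replicate 2. Of the 679 genes called, it was 328 with 10 or more counts required in all libraries and between 571, without control siRNA replicate 1, and 1052, without RbFox2 siRNA replicate 2. The 24 of the 51 called higher became 14 with the DESeq2 Wald test and between 13 and 30 with 1 library left out, with 13 reached without either control library. The median log2 fold change of the 51 was between 1.02 and 1.19 with 1 library left out, and the median shares were between 11.8% and 14.0% for control siRNA and between 30.0% and 31.2% for RbFox2 siRNA. An arm of 1 library is assumed to vary like the other condition.

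Same-numbered libraries did not deviate together (correlation of -0.14 over transcripts and -0.12 over genes), so the number was not treated as a pairing. With the replicate block, 313 transcripts, 862 genes and 20 of the 51 were called, and the median log2 fold change was 1.13. With the numbers crossed, an alternative chosen after seeing the data along with the left-out libraries for the calls, 525 transcripts, 646 genes and 33 of the 51 were called. Of the fold changes of 34 named transcripts under 7 alternatives each, 0 changed sign, 10 moved by more than the spread between replicates and 228 did not. The rule had put both RbFox2 siRNA libraries above both control libraries, so the lack of sign changes was largely set by the choice of the transcripts. Depth limits the transcripts near 10 counts, whose shares and ratios rest on few reads.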
